A study of Mus musculus with 16 samples.

Results

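The genes described here are 42 signals and receptors of immune cells, 17 cytokines, 15 chemokines and 10 chemokine receptors, out of 24445 named genes in the series. They were taken by symbol from a list drawn up with earlier results of these data known, and all 42 were found in the table. RNA was sequenced from peritoneal B1b cells, innate-like B cells isolated by cell sorting, in 3 libraries labelled wt and 3 labelled cre. Whole aortas gave 5 libraries of each label. All 16 libraries came from the ApoE-/- strain, which lacks apolipoprotein E and develops atherosclerosis, so the wild-type groups carry that deletion too. The series describes the cre groups as mice lacking CD40 in B cells. CD40 is a receptor of the TNF receptor family through which T cells and other cells stimulate B cells. Neither the Cre driver, the altered part of Cd40, the alleles of the wild-type mice nor age and diet could be learned from the labels. Nothing there ties each library to its own animal, so a p-value here reflects only the spread between these samples, which may be technical.

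Cytokines are secreted proteins that act on receptors of nearby cells. Chemokines are small cytokines that draw cells carrying the matching receptor, a protein that spans the membrane and signals through G proteins. CXCL13 acts through CXCR5 and CXCL12 through CXCR4, CCL19 and CCL21 act through CCR7, CCL2 acts through CCR2, and CX3CL1 acts through CX3CR1. In atherosclerosis, CCL2 and CX3CL1 are known for drawing monocytes into the vessel wall, and CXCL13 and CXCR5 place B cells in follicles and in the peritoneal cavity.

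The B1b libraries held 6815829 to 9911226 counts each and the aortas 1645926 to 7300894, with 2 aortas under 2000000. Levels are given as CPM, counts per 1000000 of the library size after TMM scaling, and libraries are numbered in the order of the samples, which pairs nothing. The B cell genes Cd79a and Ms4a1 stood at 1281 to 1483 CPM and 1744 to 2267 CPM in the B1b libraries, and the T cell gene Cd3e reached at most 1.03 CPM there. In the aortas the smooth muscle gene Acta2 stood at 3859 to 10293 CPM and Cd79a at 1.56 to 30.2 CPM. The 30.2 CPM was that of cre aorta library 2 alone, with at most 4.56 CPM in the others. Each aorta is a mixture of cells, so fewer cells of a type and less RNA per cell cannot be told apart. Cd40 itself stood at 39.4, 34.0 and 36.8 CPM in wild-type B1b cells and at 30.0, 30.2 and 38.1 CPM in cre B1b cells. The groups overlapped, and the log2 fold change of Cd40, cre minus wild type, was -0.16 (SE 0.14, edgeR quasi-likelihood, Benjamini-Hochberg adjusted p = 0.679). In aortas Cd40 ran from 4.76 to 12 CPM in wild type and from 1.85 to 8.51 CPM in cre (log2 fold change -0.35, edgeR adjusted p = 0.711). Because it is not known which part of Cd40 was altered, its counts say nothing on whether the labels are right.

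The first comparison asked where each signal and receptor was expressed, in wild-type B1b cells or in wild-type aortas. B1b cells held receptors and little chemokine transcript, and aortas held chemokines. Of 39 members that could be tested, 12 were higher in B1b cells and 24 were lower (edgeR quasi-likelihood, adjusted p under 0.05), where 35.4% of all 14339 genes tested were higher and 40.4% were lower. By role, 6 of 14 cytokines were higher and 7 lower, 0 of 15 chemokines were higher and 14 lower, and 6 of 10 receptors were higher and 3 lower. The median log2 fold change, B1b minus aorta, was -0.76 for the cytokines, -3.98 for the chemokines and 2.26 for the receptors, beside -0.09 over all genes tested. In summed level the 10 receptors held 2180 CPM in B1b cells and 358 CPM in aortas, and the 15 chemokines held 49.2 and 1124 CPM. Most of the receptor sum in B1b cells was Cxcr5, with a mean of 1471 CPM there and 9.06 CPM in aortas. The sort, the lysis and the tissue cannot be told apart in this contrast.

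**Figure D1:**
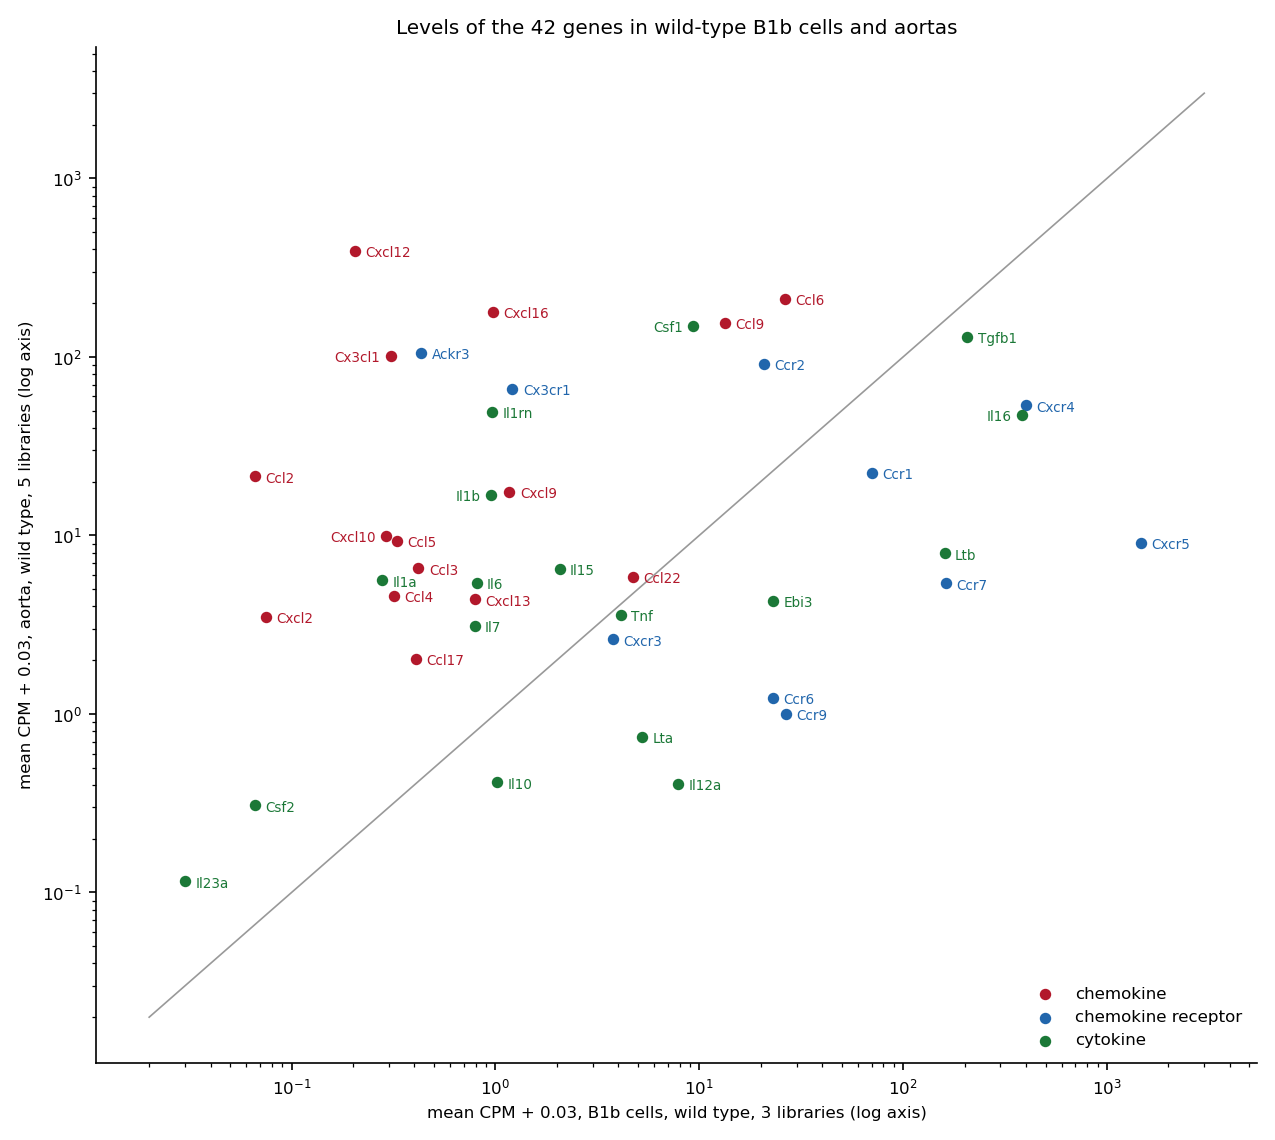
Mean level of each of the 42 genes in wild-type B1b cells (3 libraries, horizontal) and wild-type aortas (5 libraries, vertical), in CPM with a small constant added, on log axes. The grey line marks equal levels, and all 15 chemokines lie above it, while Cxcr5, Ccr7 and Ltb lie far below.

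Among the cytokines, levels per length of transcript in B1b cells were highest for Ltb, Tgfb1 and Il16. Ltb, the membrane-anchored partner of lymphotoxin alpha, stood at 138 ± 20.1 CPM per kilobase, Tgfb1, a growth-restraining and matrix-inducing cytokine, at 94.7 ± 7.11, and Il16, a ligand of CD4, at 72.8 ± 3.74 (SD, n = 3). Neighbours in this order differed by more than their standard deviations. Ltb gave 187, 147 and 146 CPM in wild-type B1b libraries and 3.69 to 12.2 CPM, median 7.47, in wild-type aortas, without overlap (log2 fold change 4.41, edgeR adjusted p = 9.79e-09). Il16 gave 399, 361 and 389 CPM in B1b cells and 39.8 to 53.9 CPM in aortas (log2 fold change 3.03, edgeR adjusted p = 4.7e-10). Tgfb1 was present in both, at 214, 188 and 216 CPM in B1b cells and 119, 137, 145, 151 and 95.7 CPM in aortas, with every B1b library above every aorta. Its log2 fold change was 0.68 (edgeR adjusted p = 0.00106).

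3 further cytokine genes were higher in B1b cells. They were Il12a, the p35 subunit of interleukin-12 and interleukin-35, with a log2 fold change of 4.46, Lta, which encodes lymphotoxin alpha, with 2.92, and Ebi3, a subunit of interleukin-27 and interleukin-35, with 2.36 (edgeR adjusted p from 1.19e-05 to 9.19e-05). Lower in B1b cells were the macrophage growth factor Csf1 (-4.0), the interleukin-1 genes Il1a (-4.38), Il1b (-4.21) and Il1rn (-5.72), and Il6 (-2.86), Il7 (-1.95) and Il15 (-1.68). Csf1 gave 11.5, 7.84 and 8.60 CPM in B1b cells and 141, 144, 137, 170.3 and 157 CPM in aortas. Il1rn, the natural antagonist of interleukin-1, gave 1.49, 0.771 and 0.544 CPM in B1b cells and 45.6, 42.7, 54.9, 66.3 and 35.4 CPM in aortas. Neither gene overlapped between the tissues, and with Tgfb1 (59.6 ± 10.3) Csf1 (35.9 ± 3.24) and Il1rn (24.7 ± 6.0) were the cytokines of highest level in aorta per length, in CPM per kilobase (SD, n = 5). Tnf, the inflammatory cytokine, gave 5.94, 3.85 and 2.5 CPM in B1b cells and 1.59 to 4.80 CPM in aortas, which overlapped, and it did not pass (log2 fold change 0.17, 95% interval -0.73 to 1.07, edgeR adjusted p = 0.727). Il10, Csf2 and Il23a were too low to test, with group means of at most 0.992, 0.277 and 0.312 CPM over the 4 groups.

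The chemokines stood on the other side. Cxcl12, which holds leukocytes and progenitor cells through CXCR4, gave 437, 364, 340.0, 441 and 380 CPM in wild-type aortas and 0.135, 0.385 and 0 CPM in B1b cells. No B1b library came near an aorta, and the fitted log2 fold change was -11.03 (edgeR adjusted p = 5.37e-11), on 4 counts in the 3 B1b libraries. These values depend on the transcript kept for Cxcl12. The other transcripts of the gene held 550.0% and 425% of its counts in wild-type B1b cells and 37.7% and 32.0% in wild-type aortas, and with the transcript of lowest count the log2 fold change was -7.4 (edgeR adjusted p = 4.74e-09). Per length of transcript, Cxcl12 (209 ± 24.0 CPM per kilobase), Ccl6 (147 ± 58.7), a chemokine of myeloid cells, and Cxcl16 (66.0 ± 20.1), the ligand of CXCR6, led the aortic chemokines (SD, n = 5). Cxcl16 gave 213, 166, 207, 217 and 87.8 CPM in aortas against 1.08, 0.642 and 1.09 CPM in B1b cells (log2 fold change -7.52, edgeR adjusted p = 4.74e-09). Cx3cl1, a chemokine that endothelium carries on a stalk, gave 69.3 to 118 CPM in aortas on one side and 0.135 to 0.436 CPM in B1b cells on the other (log2 fold change -8.36, edgeR adjusted p = 1.89e-10). Ccl2, the main attractant of CCR2 monocytes, gave 18.6 to 27.7 CPM in aortas and 1 count in all 3 wild-type B1b libraries, and Cxcl2, an attractant of neutrophils, gave 1.06 to 7.52 CPM in aortas and 1 count in B1b cells.

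In B1b cells only Ccl6, Ccl9 and Ccl22 among the 15 chemokines had a mean above that of Cxcl9, 1.14 CPM, in wild type. They stood at 18.2 ± 13.3, 4.43 ± 2.26 and 2.12 ± 1.75 CPM per kilobase (SD, n = 3), a wide spread beside each mean. Ccl6 gave 7.43, 25.6 and 45.7 CPM and Ccl9 7.29, 11.9 and 20.7 CPM in the 3 wild-type B1b libraries, lowest in library 1 and highest in library 3 for both. In wild-type aortas Ccl6 gave 153, 154, 258, 339 and 154 CPM and Ccl9, a chemokine of myeloid cells and osteoclasts, 121, 117, 189, 228 and 124 CPM. Both were lower in B1b cells without overlap (log2 fold change -2.99 and -3.52, edgeR adjusted p = 0.00108 and 5.57e-06), and without B1b wild-type library 3 that of Ccl6 was -3.67. Ccl22, a ligand of CCR4, gave 8.91, 3.85 and 1.31 CPM in B1b cells and 4.08 to 8.23 CPM in aortas, which overlapped, and it was the only chemokine that did not pass (log2 fold change -0.34, 95% interval -1.42 to 0.75, edgeR adjusted p = 0.55). Without B1b wild-type library 1 Ccl22 passed as lower (-1.18). The annotated spans of Ccl3 and Ccl4, a pair of inflammatory chemokines, overlap on chromosome 11, so their reads cannot be told apart with certainty, and the pair stood at 1.59 to 8.72 and 3.18 to 5.68 CPM in wild-type aortas and at most 0.653 CPM in wild-type B1b cells.

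For the neighbouring genes Ccl6 and Ccl9 the 250 bases before their RefSeq starts are shown, with the longest run of letters that they share in capitals. Of the 42 members 32 had such a window in the RefSeq table. The genes lie 9249 bases apart on chromosome 11 of GRCm38.p6, both on the minus strand, and the windows are chr11:83593088-83593337 for Ccl6 and chr11:83578637-83578886 for Ccl9, written 5′ to 3′ along the gene.
Ccl6: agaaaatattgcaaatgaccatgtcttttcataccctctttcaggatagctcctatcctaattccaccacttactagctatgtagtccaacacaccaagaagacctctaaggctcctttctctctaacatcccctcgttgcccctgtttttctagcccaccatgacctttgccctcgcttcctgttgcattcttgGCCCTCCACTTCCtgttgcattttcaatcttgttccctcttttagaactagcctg
Ccl9: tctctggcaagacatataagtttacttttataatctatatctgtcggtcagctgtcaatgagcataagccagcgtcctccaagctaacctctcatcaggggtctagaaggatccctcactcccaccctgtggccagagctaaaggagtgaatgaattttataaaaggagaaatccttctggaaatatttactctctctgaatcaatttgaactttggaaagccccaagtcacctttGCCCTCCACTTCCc
The shared run of 13 bases, GCCCTCCACTTCC, ended 42 bases before the start of Ccl6 and 1 base before that of Ccl9. The run was picked by comparing these windows, so both genes hold it by construction and its rarity is no test. Of 32851 windows of the same length as those shown, 5 (0.0152%) held it on either strand, those of Ccl6 and Ccl9 included. It contains CACTTCC, letters that many ETS factor sites hold, which on either strand occurred in 8.55% of windows and in those of 5 members (Ccl6, Ccl9, Ccl22, Ccr6 and Cxcr3). A match describes the letters and is not a measured site, and its part in the levels was not tested.

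Among the receptors of B1b cells Cxcr5, the receptor of CXCL13, stood first with 563 ± 21.5 CPM per kilobase, then Cxcr4 with 222 ± 24.6 and Ccr7 with 82.1 ± 17.9 (SD, n = 3), each step larger than the spread. Cxcr5 gave 1428, 1535 and 1451 CPM in B1b cells and 5.68 to 11.6 CPM, median 8.46, in aortas (log2 fold change 7.36, SE 0.22, edgeR adjusted p = 2.91e-11). Ccr7, which guides lymphocytes into the T cell zone, gave 185, 180.0 and 122 CPM in B1b cells and 2.64 to 7.0 CPM in aortas (log2 fold change 4.85, edgeR adjusted p = 5.28e-10). Cxcr4 gave 433, 418 and 350.3 CPM in B1b cells and 49.9, 62.2, 57.3, 72.2 and 25.9 CPM in aortas (log2 fold change 2.89, edgeR adjusted p = 1.96e-07). No library of these 3 genes overlapped between the tissues. The gut-homing receptor Ccr9 (4.77), the CCL20 receptor Ccr6 (4.39) and the inflammatory receptor Ccr1 (1.62) were also higher in B1b cells (edgeR adjusted p from 4.39e-07 to 0.00024). The value of Ccr6 was 5.57 without aorta library 2 and that of Ccr9 5.47 without aorta library 3.

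3 receptors were lower in B1b cells. Ackr3, which takes up CXCL12 without G protein signalling, led the aortic receptors per length with 34.4 ± 4.13 CPM per kilobase, beside Ccr2 with 30.4 ± 3.98 and Cxcr4 with 29.6 ± 9.65 (SD, n = 5), and these neighbours did not differ beyond their spread. Ackr3 gave 103, 105, 86.8, 109 and 122 CPM in aortas and 0.405, 0.257 and 0.544 CPM in B1b cells (log2 fold change -7.92, edgeR adjusted p = 4.54e-11). Cx3cr1, the receptor of CX3CL1 on monocytes and macrophages, gave 79.0, 46.1, 79.5, 82.9 and 42.3 CPM in aortas and at most 1.85 CPM in B1b cells (log2 fold change -5.73, edgeR adjusted p = 6.47e-08). Ccr2 gave 90.7, 88.8, 90.6, 109.5 and 76.2 CPM in aortas and 8.64, 17.2 and 36.4 CPM in B1b cells (log2 fold change -2.11, edgeR adjusted p = 0.000291), or -2.8 without B1b library 3. Cxcr3, a receptor of interferon-induced chemokines, gave 2.83 to 5.00 CPM in B1b cells and 0.895 to 4.32 CPM in aortas and did not pass (log2 fold change 0.55, 95% interval -0.45 to 1.54, edgeR adjusted p = 0.295).

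The same contrast in the cre libraries, which share no sample with the wild-type one, gave 12 members higher and 22 lower in B1b cells, where 33.8% of all genes tested were higher and 40.2% were lower (edgeR quasi-likelihood). Of 39 members tested in both genotypes, 12 were higher in both, 22 were lower in both, 0 passed in opposite directions, and 3 passed in neither (Tnf, Ccl22 and Cxcr3). In cre, fits without 1 library ran from -2.7 to -0.3 for Cxcr3 and from -1.39 to -0.69 for Ccl22. Their lowest adjusted p there was 0.0121 and 0.0174 (edgeR), so both passed as lower in some of these fits. Ccl17, a CCR4 ligand, and Ccr2 passed in wild type only, with log2 fold changes in cre of -1.81 (95% interval -3.71 to 0.09) and -0.17 (-0.82 to 0.48). In cre Ccl17 passed with DESeq2 (-1.98) and limma-voom (-2.46, adjusted p = 0.0241). Leaving out 1 library gave it -3.49 to -1.35, with a lowest adjusted p of 0.0165 (edgeR). Ccr2 in cre B1b cells, at 45.1, 70.2 and 52.1 CPM, lay among the cre aortas, at 77.8, 80.8, 28.9, 61.7 and 80.7 CPM. The cre calls of Tgfb1 (0.45), Il15 (-1.19), Cxcl13 (-1.72) and Ccr9 (2.5) depended on single libraries. The calls of Il15 (-1.11, adjusted p = 0.0639) and Cxcl13 (-1.65, adjusted p = 0.0511) also ended with no filter on low counts in edgeR, and that of Tgfb1 under DESeq2 (0.32, adjusted p = 0.119). Without 1 library they ranged from 0.27 to 0.55, from -1.61 to -0.89, from -2.0 to -1.41 and from 2.03 to 2.74, with the highest adjusted p at 0.183, 0.102, 0.082 and 0.0632. Ccr9 lost its call without B1b cre library 3, Cxcl13 without any of the 3 B1b cre libraries, Il15 without B1b cre library 1 or 3 or aorta cre library 1, and Tgfb1 without any B1b cre library or aorta cre library 2, 3 or 4.

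**Figure D2:**
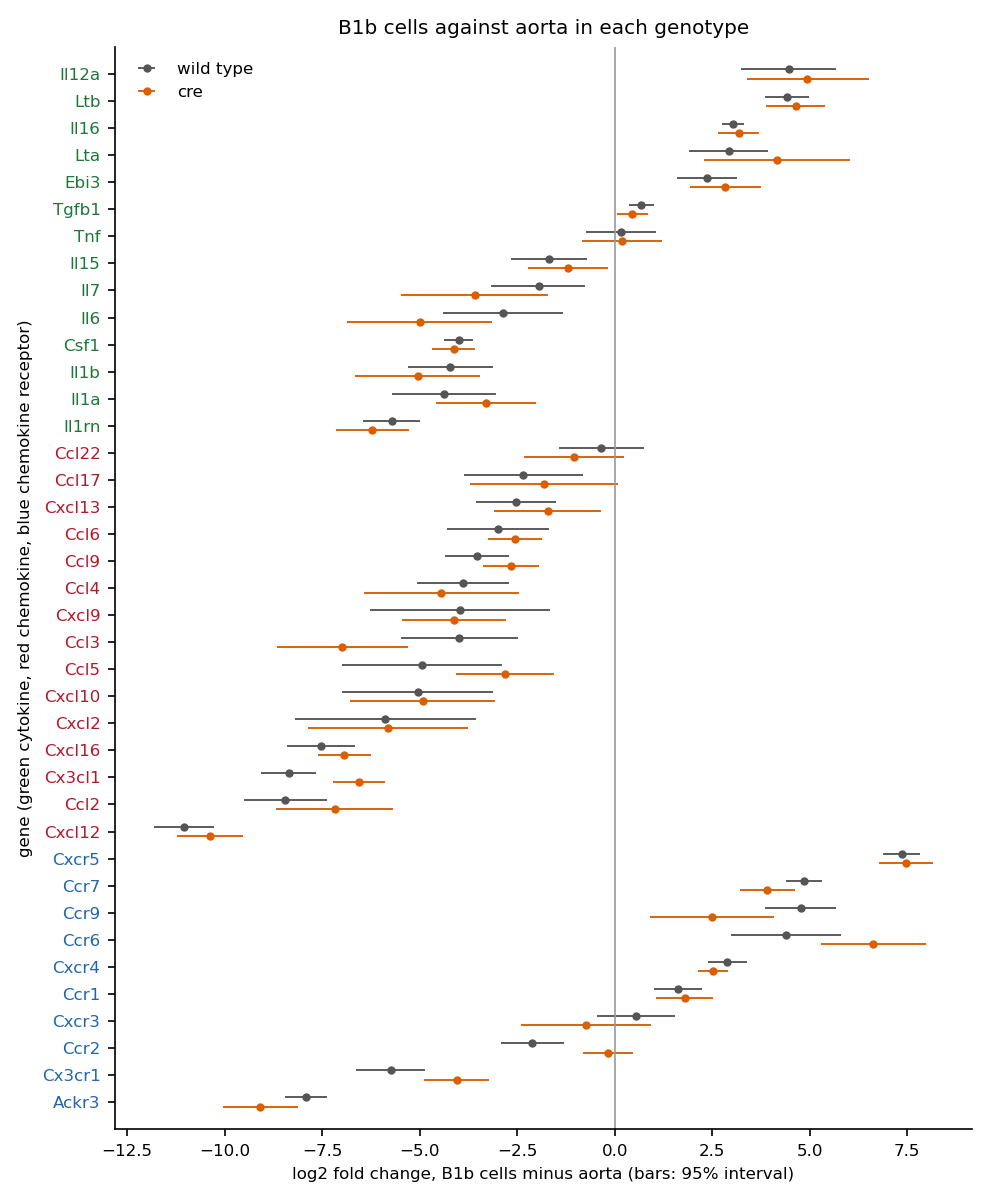
Log2 fold change, B1b cells minus aorta, of the 39 genes tested, in wild type (grey) and in cre (orange), ordered by role, with bars for the 95% interval. All 15 chemokines lie below 0 in both genotypes, and Cxcr5 lies at 7.36 and 7.47. The points of Ccl2, Cxcl2 and, in cre, Ccl3 rest on 1 to 3 counts in B1b cells and depend on the fit.

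The second comparison asked how these genes differed between cre and wild-type B1b cells. No member passed the adjusted threshold. The receptors Cxcr5, Ccr7, Ccr9 and Cxcr4 had lower means in cre, with overlap between the groups for Ccr9 and Cxcr4. Means of Ccl9, Ccl6, Ccr2 and Cx3cr1 were higher in cre. Of the 42 members 21 had enough counts to be tested, 9 cytokines, 3 chemokines and 9 receptors, and 0 passed (edgeR quasi-likelihood), where 0.707% of 11732 genes did. At an unadjusted p under 0.05, 2 members were higher (Ccl9 and Cx3cr1), where 7.63% of all genes were, and 4 were lower (Cxcr5, Ccr9, Ccr7 and Cxcr4), where 5.69% were. DESeq2 called 1 member, Cxcr5, and limma-voom called 3, Ccl9, Ccr2 and Ccr7. The groups did not overlap for 4 members that were higher (Ccl9, Ccl6, Ccr2 and Cx3cr1; background 9.71%) and 2 that were lower (Cxcr5 and Ccr7; background 8.66%). The median log2 fold change of the 21 was -0.16, beside a median over all genes of -0.005.

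Among the receptors, Cxcr5 gave 1428, 1535 and 1451 CPM in wild type and 1190, 1273 and 1260 CPM in cre. Every cre library lay below every wild-type library, by a small amount relative to the level (log2 fold change -0.25, SE 0.07, 95% interval -0.39 to -0.10, edgeR adjusted p = 0.121). Under DESeq2 the value was -0.24 with an adjusted p of 0.026. Ccr7 gave 185, 180.0 and 121.6 CPM in wild type and 121.3, 69.2 and 84.4 CPM in cre, so the lowest wild-type library and the highest cre library nearly met (log2 fold change -0.82, SE 0.27, edgeR adjusted p = 0.317). Its adjusted p was 0.0344 with limma-voom (-0.82) and 0.0484 without cre library 1 (-1.07).

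Ccr9 gave 22.0, 31.5 and 26.0 CPM in wild type and 11.8, 14.4 and 24.1 CPM in cre, where library 3 lay within the wild-type range (log2 fold change -0.65, SE 0.23, edgeR adjusted p = 0.223). Without cre library 3 it was -1.01 (adjusted p = 0.0165), and with no filter on low counts -0.63 (adjusted p = 0.0261). Cxcr4 gave 433, 418 and 350.3 CPM in wild type and 357, 374 and 277 CPM in cre, which overlapped (log2 fold change -0.25, SE 0.11, edgeR adjusted p = 0.326). Ccr1 gave 75.5, 73.1 and 61.8 CPM in wild type and 56.2, 50.1 and 113 CPM in cre, with cre library 3 the highest of all 6. Ccr6 gave 24.6, 19.9 and 24.4 CPM in wild type and 23.8, 26.1 and 13.0 CPM in cre, and Cxcr3 5.00, 2.83 and 3.38 CPM in wild type and 4.03, 0.586 and 0.303 CPM in cre. Both overlapped and neither passed.

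Ccl9 had the smallest p of all members. It gave 7.29, 11.9 and 20.7 CPM in wild type and 37.9, 39.4 and 28.7 CPM in cre, all cre libraries above all wild-type libraries (log2 fold change 1.39, SE 0.32, 95% interval 0.66 to 2.11, edgeR adjusted p = 0.113). It passed with limma-voom (1.44, adjusted p = 0.0157), with no filter on low counts (1.40, adjusted p = 3.29e-11), without wild-type library 1 (1.10, adjusted p = 0.034) and without wild-type library 3 (1.87, adjusted p = 9e-05). Over the 8 alternatives that kept every library its adjusted p ran from 3.29e-11 to 0.43. The fit with no filter called 226 genes higher and 101 lower, beside 57 and 26 in the main fit. Its fold change of Ccl9 hardly differed from the main one, so the smaller p there does not reflect a larger difference. Its neighbour Ccl6 gave 7.43, 25.6 and 45.7 CPM in wild type and 52.5, 61.3 and 52.4 CPM in cre, so wild-type library 3 came close to the cre libraries (edgeR adjusted p = 0.581).

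Ccr2, the receptor of CCL2 on inflammatory monocytes, gave 8.64, 17.2 and 36.4 CPM in wild type and 45.1, 70.2 and 52.1 CPM in cre without overlap (edgeR adjusted p = 0.412). It passed with limma-voom (log2 fold change 1.55, adjusted p = 0.0254) and without wild-type library 3 (2.11, adjusted p = 0.0118). Cx3cr1 was scarce, at 0.405, 1.28 and 1.85 CPM in wild type and 3.66, 2.78 and 2.12 CPM in cre, from 30 and 70 counts (log2 fold change 1.23, SE 0.58, edgeR adjusted p = 0.369). These 4 genes shared their order over the wild-type libraries, lowest in library 1 and highest in library 3.

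**Figure D3:**
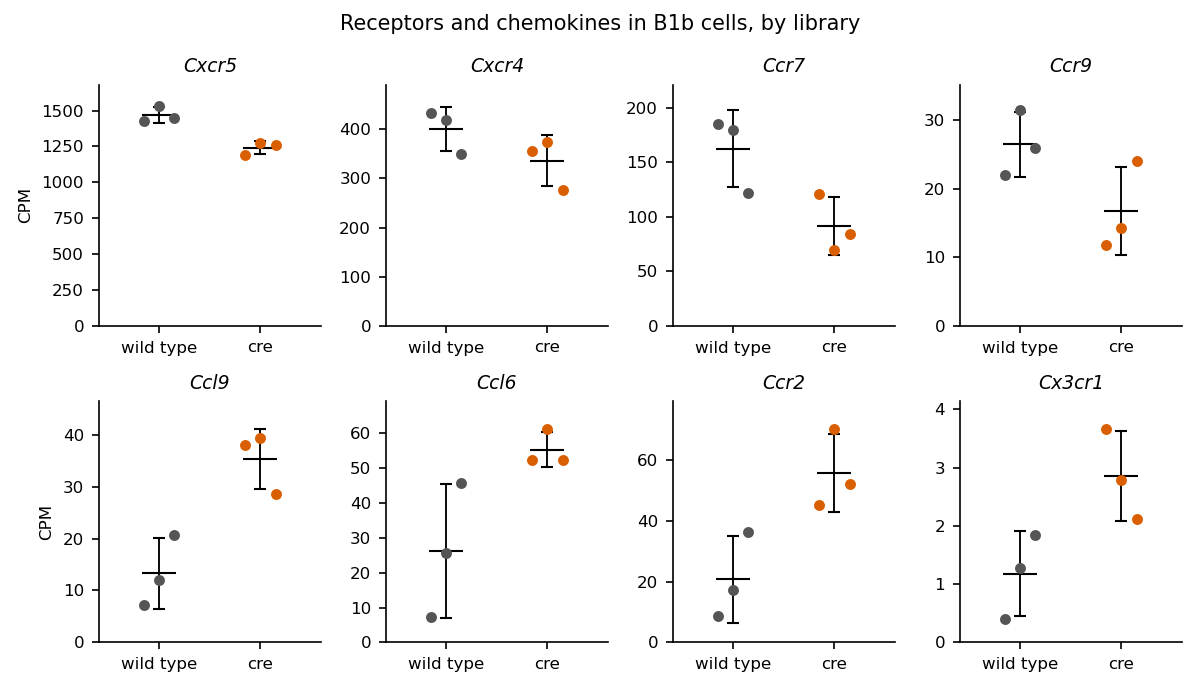
Level in CPM of 8 genes in the 3 wild-type and 3 cre B1b libraries, with each library as a point and bars for the mean and SD. The points of Cxcr5 and Ccr7 lie lower in cre and those of Ccl9, Ccl6, Ccr2 and Cx3cr1 higher, without overlap, while those of Cxcr4 and Ccr9 overlap.

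The summed level of macrophage and monocyte markers shared the order of these 4 genes over the wild-type libraries and was higher in cre, while single markers differed. The sum of 10 such markers was 286, 374 and 438 CPM in the wild-type B1b libraries and 513, 561 and 521 CPM in cre, again lowest in wild-type library 1 and without overlap between the groups. Within cre the sum, Ccl6, Ccl9 and Ccr2 were highest in library 2, but Cx3cr1 was highest in library 1, where the sum was lowest. Of the 10 markers 9 had a log2 fold change above 0, 1 passed (Csf1r), the median was 0.56, and none was at 0 counts. The exception was the macrophage gene Adgre1, at 18.4, 17.5 and 18.7 CPM in wild type and 19.4, 11.9 and 13.6 CPM in cre. Lyz2, lysozyme of macrophages, stood at 57.4, 103 and 142 CPM in wild type and 187, 242 and 191 CPM in cre, and C1qa, a complement gene of macrophages, at 0.945, 4.24 and 3.16 CPM and at 9.76, 5.13 and 6.46 CPM. These markers, Csf1r and Mrc1 did not overlap between the groups, while Adgre1, Cd14, Cd68, C1qb, C1qc and Itgam did. Itgam, which peritoneal B1 cells also express, gave the largest part of the sum in every B1b library except cre library 2, where Lyz2 did. Its level was 156, 192 and 186 CPM in wild type and 201, 190 and 205 CPM in cre. The part of these markers in the values of Ccl6, Ccl9, Ccr2 and Cx3cr1 was not tested.

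**Figure D4:**
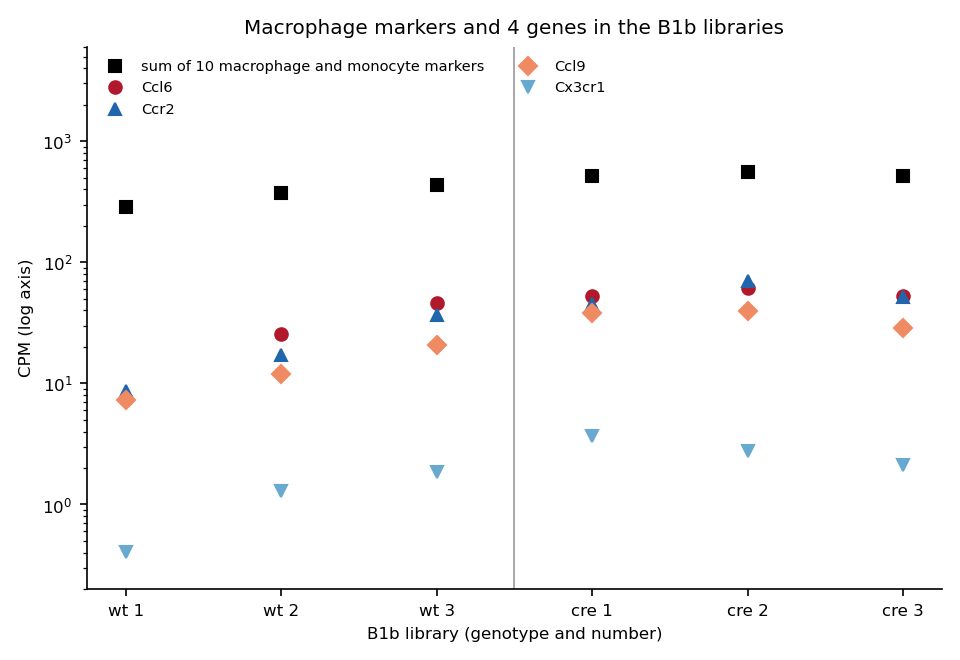
Level in CPM, on a log axis, of Ccl6, Ccl9, Ccr2, Cx3cr1 and the sum of 10 macrophage and monocyte markers in each B1b library. The marker sum, which includes Itgam, lies at 286 to 438 CPM in wild type and at 513 to 561 CPM in cre. The 4 genes are lowest in wild-type library 1.

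Among the cytokines of B1b cells, of 9 tested, 0 passed and 0 had an unadjusted p under 0.05 (edgeR quasi-likelihood), with log2 fold changes from -0.46 (Tnf) to 0.56 (Il15). Ltb gave 187, 147 and 146 CPM in wild type and 125, 118 and 163 CPM in cre, Tgfb1 214, 188 and 216 CPM and 189, 172 and 193 CPM, and Il16 399, 361 and 389 CPM and 349.5, 342 and 369 CPM. In each of the 3 the groups overlapped and the cre mean was lower, by a log2 fold change of -0.24, -0.16 and -0.11. The third chemokine tested, Ccl22, gave 4.64, 3.37 and 2.62 CPM in cre, inside the wild-type range. The 21 members that were not tested had a group mean of at most 1.28 CPM in B1b cells of either genotype.

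The receptors of the member cytokines and the other chemokine genes, a list of 53, were measured beside them. In B1b cells 22 of the 53 were tested, 1 was higher and 0 were lower in cre (edgeR quasi-likelihood), where 0.707% of all genes tested passed. The gene that rose was Csf1r, the receptor of CSF1 on macrophages, at 6.62, 8.99 and 9.80 CPM in wild type and 17.1, 19.2 and 14.6 CPM in cre (log2 fold change 0.99, SE 0.21, edgeR adjusted p = 0.0357). It is also one of the 10 macrophage markers above, and its call was lost with limma-voom (0.96), with a spread shared by all 16 libraries (0.98), and without wild-type library 1 (0.84) or 2 (1.04) or cre library 1 (0.99) or 2 (0.90). Csf2rb, the signalling chain shared by receptors of GM-CSF and interleukin-5, gave 321, 324 and 332 CPM in wild type and 439, 382 and 381 CPM in cre (log2 fold change 0.30, edgeR adjusted p = 0.0797), and Tnfrsf1a, the broadly expressed TNF receptor, 1.76, 3.08 and 1.63 CPM and 8.66, 5.72 and 4.44 CPM (1.54, edgeR adjusted p = 0.099). Tgfbr2, a receptor of TGF-beta, gave 430.1, 432 and 408 CPM in wild type and 365, 351 and 371 CPM in cre (-0.22, edgeR adjusted p = 0.154). The groups of these 4 genes, named for their small p, did not overlap. Of the 22 tested, 6 were higher and 4 lower without overlap, where 9.71% and 8.66% of all genes tested were.

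The third comparison asked how the members differed between cre and wild-type aortas. No member passed the adjusted threshold. Of 34 members tested 0 passed (edgeR quasi-likelihood), where 0.0150% of 13364 genes did, and 0 passed under DESeq2, limma-voom or any of the other alternatives run. At an unadjusted p under 0.05, 1 was higher, Ccl6, where 6.87% of all genes were, and 0 were lower, where 5.72% were. The groups overlapped for all 34, where 2.92% of genes did not overlap. The median log2 fold change was -0.03 for the 12 cytokines, -0.10 for the 14 chemokines and 0.05 for the 8 receptors, beside 0.00 over all genes.

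Ccl6 gave 153, 154, 258, 339 and 154 CPM in wild-type aortas and 418, 368, 153, 318 and 447 CPM in cre. In cre 4 of 5 libraries lay above 4 of the wild-type libraries, and library 3 lay among the lowest (log2 fold change 0.68, SE 0.30, 95% interval 0.03 to 1.34, edgeR adjusted p = 0.379). Ccl9 followed it, at 121, 117, 189, 228 and 124 CPM in wild type and 309, 266, 112, 184 and 293 CPM in cre, with the same library lowest (log2 fold change 0.58, SE 0.28, edgeR adjusted p = 0.412). Cx3cl1 gave 108, 113, 99.2, 118 and 69.3 CPM in wild type and 90.9, 81.4, 80.6, 60.4 and 97.6 CPM in cre (log2 fold change -0.31, SE 0.17, edgeR adjusted p = 0.455). Cxcl12 ran from 340.0 to 441 CPM in wild type and from 256 to 475 CPM in cre, and Cxcl16 from 87.8 to 217 CPM and from 120.5 to 209 CPM.

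Ccr2 gave 90.7, 88.8, 90.6, 109.5 and 76.2 CPM in wild-type aortas and 77.8, 80.8, 28.9, 61.7 and 80.7 CPM in cre, where library 3 was far the lowest (log2 fold change -0.48, SE 0.23, edgeR adjusted p = 0.411). Without cre library 3 the value was -0.28. Ackr3 gave 103, 105, 86.8, 109 and 122 CPM in wild type and 141, 84.5, 129, 134 and 135 CPM in cre, with 4 cre libraries above all wild-type libraries and library 2 below them (log2 fold change 0.25, SE 0.15, edgeR adjusted p = 0.506). Cxcr4 ran from 25.9 to 72.2 CPM in wild type and from 42.5 to 74.6 CPM in cre, and Cxcr5 from 5.68 to 11.6 CPM and from 4.33 to 16 CPM. The 16 CPM came from cre library 2, the shallowest aorta, and the other cre aortas reached 8.06 CPM. That library was also highest for Cd79a, at 30.2 CPM, where the other cre aortas reached 3.94 CPM.

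Among the aortic cytokines Il6, an inducer of the acute phase, gave 5.76, 8.05, 3.50, 9.08 and 0.529 CPM in wild type and 31.8, 8.02, 5.45, 6.08 and 10.2 CPM in cre. Library 1 of cre stood apart, and its log2 fold change, 1.12 with all libraries (SE 0.57, edgeR adjusted p = 0.442), was 0.40 without that one. Il1b was highest in the same library, at 41.4 CPM. Tgfb1, at 95.7 to 151 CPM in wild type and 111 to 170.3 CPM in cre, Csf1, at 137 to 170.3 CPM and 110.1 to 177 CPM, and Il1rn, at 35.4 to 66.3 CPM and 33.2 to 96.8 CPM, overlapped between the genotypes.

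**Figure D5:**
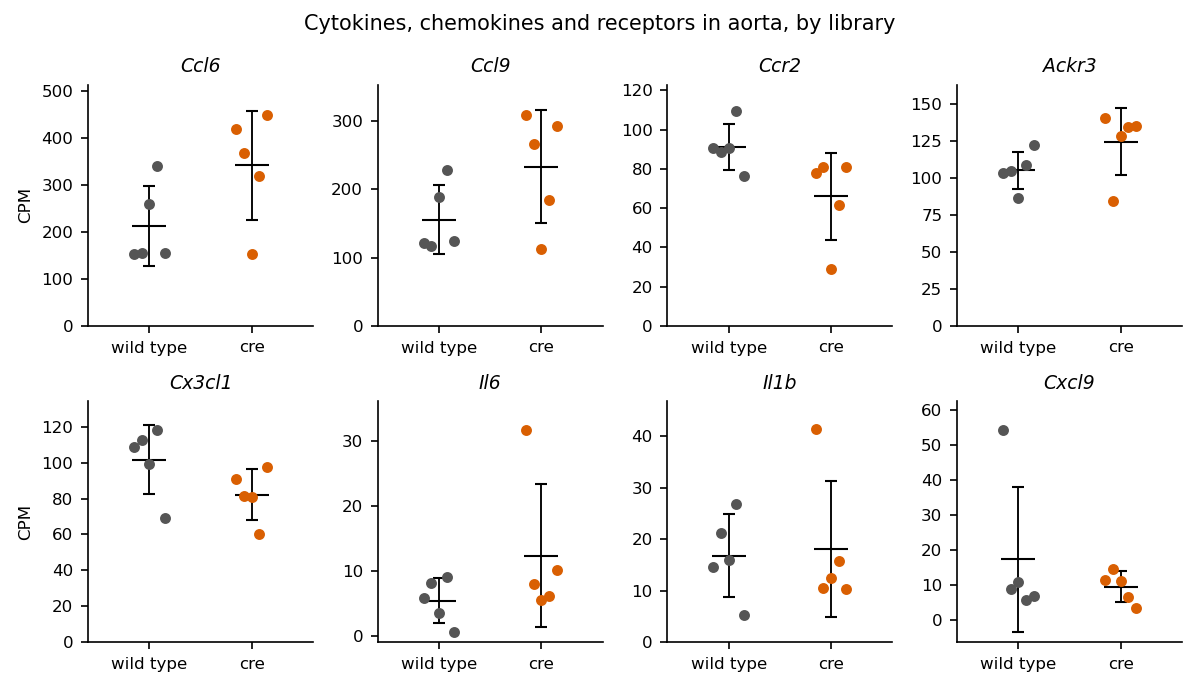
Level in CPM of 8 genes in the 5 wild-type and 5 cre aortas, with each library as a point and bars for the mean and SD. The groups overlap in every panel. Single libraries stand apart above the others for Il6 and Il1b in cre and Cxcl9 in wild type, and below them for Ackr3 in cre.

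The makeup of the aortas varied as well. The sum of 4 heart muscle markers ran from 349 to 1746 CPM in wild type and from 422 to 4350 CPM in cre, that of 4 fibroblast markers from 9160 to 13473 and from 6438 to 10612 CPM, and that of the 10 macrophage and monocyte markers from 2619 to 6105 and from 3819 to 6819 CPM. Cre library 3, the lowest of its group for Ccl6, Ccl9 and Ccr2, also had the lowest macrophage sum in that group, at 3819 CPM. The leukocyte gene Ptprc was lowest there too, at 77.8 CPM. It ran from 129 to 190 CPM in wild type and up to 150 CPM in cre (log2 fold change -0.48, edgeR adjusted p = 0.32). The median log2 fold change, cre minus wild type, was 2.06 for the heart muscle, -0.48 for the fibroblast and 0.06 for the macrophage markers. Values were above 0 for 4 of 4, 0 of 4 and 5 of 10 of them, and none of these markers passed (edgeR quasi-likelihood). Myl7 of heart muscle ran from 27.2 to 47.2 CPM in wild type and from 70.1 to 557 CPM in cre, without overlap. Myh6, Nppa and Actc1 overlapped. The part of this makeup in the members' values was not tested.

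In aortas 38 of the 53 other pathway genes were tested and 0 passed, with 1 higher and 1 lower at an unadjusted p under 0.05 (edgeR quasi-likelihood). Tgfbr1, the signalling receptor of TGF-beta, gave 173, 185, 148, 208 and 206 CPM in wild type and 144, 85.1, 88.0, 129.7 and 162 CPM in cre (log2 fold change -0.59, edgeR adjusted p = 0.247). Il12rb2, a chain of the interleukin-12 receptor, gave at most 3.26 CPM in wild type and 3.78 to 4.98 CPM in cre without overlap (1.16, edgeR adjusted p = 0.339). It was the only one of the 38 without overlap, where 2.92% of all genes tested did not overlap. The chemokines Pf4 (0.46, edgeR adjusted p = 0.413), stored in platelets, and Ccl8 (0.45, edgeR adjusted p = 0.444), a monocyte attractant, came next.

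Whether the difference between genotypes itself differed between B1b cells and aortas was tested over all 16 libraries. Of 39 members 0 passed (edgeR quasi-likelihood), where 0.0199% of 15091 genes did, 6 had an unadjusted p under 0.05, where 11.1% of genes did, and limma-voom called 0. Ccr2 came first, with a log2 difference, B1b minus aorta, of 1.88 (SE 0.50, 95% interval 0.81 to 2.94, edgeR adjusted p = 0.19). DESeq2 called it alone (1.93, adjusted p = 0.0241), and over all alternatives, left-out libraries included, its value ran from 1.51 to 2.65 and its adjusted p from 0.0241 to 0.402. Cx3cr1 followed with 1.63 (SE 0.60, edgeR adjusted p = 0.34) and Ccr7 with -0.98 (SE 0.42, edgeR adjusted p = 0.40). The other 3 under the unadjusted threshold, Cx3cl1, Ccl3 and Ccr9, rested on few counts in 1 tissue. Cx3cl1 had 7 and 20 counts in wild-type and cre B1b cells, Ccl3 had 10 and 1, and Ccr9 had 23 in wild-type aortas.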

How the data were processed

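RNA was sequenced from B1b cells sorted from peritoneal lavage by surface markers and from frozen whole aortas, per the labels' protocols. The submitters' processing notes name CASAVA 1.8.2, STAR 2.5.2b and mm10. What counted the reads, on which annotation and with which strand setting, is not given in the sources used here. In their table the authors deposited raw read counts per RefSeq transcript, which were not normalized. Columns were matched to samples by title.

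Of 35745 transcripts, 35435 took a name from the RefSeq gene table and 193 from GENCODE. The transcript of highest total count was kept per gene, which left 24562 entries. Each comparison was fitted on its own libraries with edgeR 4.0.16 in R 4.3.3 (TMM, filterByExpr, robust quasi-likelihood F test), with p-values adjusted by Benjamini-Hochberg over all genes tested and a threshold of 0.05. The tissue contrasts used their own 8 libraries, while printed CPM used the scaling of each tissue. Levels per kilobase used the longest linked GENCODE transcript and are approximate. The scripts were tested on simulated data. The members and lists were chosen with earlier results of these data known. Values in every library are given for the 6 members of smallest p in each genotype comparison and for the 3 genes of each role with the highest level per length in each wild-type group. Among the other pathway genes the 4 of smallest p are named. Any other gene was named once its values were known. Alternatives were DESeq2 1.42.0, limma-voom (limma 3.58.1) with and without quality weights, other scalings, other filters, another transcript per gene, a shared spread, deeper aortas only, and leaving out each library. Some markers are not reported here.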

Additional observations from a re-analysis of the deposited data

Results flagged for a closer look

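In 5 of 72 groups of 5 aortas, taken from members with a mean of at least 1 CPM, a single library stood apart from the other 4 by Dixon's test at the 95% level. Chance flags about 1 in 20 groups. Il6 stood at 31.8 CPM in cre aorta library 1, where the others ran from 5.45 to 10.2 CPM. Il1b stood at 41.4 CPM in the same library, where the others ran from 10.4 to 15.8 CPM. Cxcl9, an interferon-induced chemokine, stood at 54.5 CPM in wild-type aorta library 1, where the others ran from 5.82 to 11 CPM. Ccr1 stood at 41.2 CPM in wild-type aorta library 4, where the others ran from 13.0 to 20.8 CPM. Ackr3 was lowest, at 84.5 CPM, in cre aorta library 2, where the others ran from 129 to 141 CPM.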

How the results depend on the processing

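In B1b cells edgeR called 83 genes between the genotypes, and the number was 197 with DESeq2, 327 with no filter, 0 with a spread shared by 16 libraries and 35 to 103 without 1 library. Members called there were 0, and 1 with DESeq2, 3 with limma-voom, 2 with no filter and 0 to 2 without 1 library. In aortas 2 genes were called, and the number was 204 with DESeq2, 92 in aortas over 2000000 counts, 1 with limma-voom, 9 with quality weights, 1 with the lowest-count transcript, 47 with a shared spread and 0 to 14 without 1 library, while 0 members were called under each of these. For the difference between tissues 3 genes were called, and 173 with DESeq2, of which 1 was a member, or 1 to 7 without 1 library. In the tissue contrasts the counts of genes and of members stayed within 1.5 times. Other scalings moved the median over all genes from -0.09 to -0.185 (DESeq2 size factors) and -0.169 (upper quartile) in wild type, and from -0.118 to -0.258 and -0.255 in cre, where Tgfb1 (0.32 under both) no longer passed. In cre Tgfb1 also missed the threshold in aortas over 2000000 counts (0.37) and with the lowest-count transcript (0.35). Tnf, which did not pass, turned to -0.18 in the wild-type contrast without B1b library 1 (range without 1 library -0.18 to 0.43), and in the cre contrast to -0.02 with the lowest-count transcript and -0.12 without B1b library 1 (-0.12 to 0.39). Ccl22, which did not pass in wild type, turned to 0.12 without B1b library 3 (-1.18 to 0.12). The cause was not tested. No paired analysis was possible because the labels give the samples no replicate numbers. Depth limits the genes under about 1 CPM in B1b cells, where single counts set the value.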
